A study of Mus musculus with 3 samples.

Results

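The unfolded protein response is followed here through 10 genes of its sensors and effectors: Ern1, Eif2ak3, Atf6, Atf6b, Xbp1, Atf4, Ddit3, Ppp1r15a, Ppp1r15b and Herpud1. They were chosen by name for their known roles, when earlier results of these data were known, and all 10 were among the 19938 genes measured by probe sets that name a single gene. Expression was measured on 3 single-colour Affymetrix arrays of wild-type haematopoietic stem cells sorted from the marrow of C57Bl/6 mice, which were 6 to 10 weeks old. The sort, called KLS SLAM, kept cells without lineage markers, CD48 or CD41 and with c-Kit, Sca-1 and CD150. No allele, agent or second group belongs to this comparison, and the labels do not say whether the arrays came from separate mice, so the spread between arrays may be technical.

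Proteins that enter the endoplasmic reticulum (ER) fold there with the help of chaperones, and unfolded protein sets off signalling from sensors in the ER membrane. IRE1 (Ern1) cuts Xbp1 mRNA so that it encodes an active transcription factor, PERK (Eif2ak3) phosphorylates the initiation factor eIF2 and thereby lowers protein synthesis while ATF4 is translated, and ATF6 is cut in the Golgi to release a transcription factor. In blood stem cells the response is known for linking protein synthesis, which is low in these cells, to survival or death under stress. Splicing, phosphorylation, translation and cleavage are not read by a probe set for the whole gene, so the values below are mRNA signals and not measures of pathway activity.

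All values are log2 of the deposited intensities, and each gene's error is the SD over the 3 arrays. The background range was taken from 1227 olfactory, vomeronasal and taste receptor genes, which sensory cells use. A gene is called above it here if it passed the 95th percentile of those genes on each of the 3 arrays. Arrays 1, 2 and 3 had limits of 6.30, 5.98 and 5.77 log2. Probe sets differ in affinity, so single genes are not ranked against each other by level, and a list's median beside that of all genes describes array signal and not transcript amounts. Across all genes Pearson's r between arrays ran from 0.940 to 0.951, a description over genes and not over replicates. The stem cell markers were above the range for 7 of 7 measured genes, where 36.8% of all genes were. They included Slamf1 at 6.51 ± 0.13 and Procr at 7.39 ± 0.38 (SD, n = 3). Granulocyte markers were above it for 7 of 8, with S100a8 at 12.08 ± 0.31 and a list mean of 8.94, 9.72 and 9.52 on arrays 1, 2 and 3, although the sort removed lineage-positive cells. Of other mature lineages, 0 of 5 B cell, 0 of 5 erythroid, 3 of 4 megakaryocyte, 1 of 6 macrophage and dendritic cell, 0 of 5 mast cell and basophil and 1 of 6 T and NK cell markers were above it. The B cell precursor gene Vpreb1, named after its values were seen, was at 5.81, 6.38 and 9.02 log2 on arrays 1, 2 and 3, a 9.25-fold difference between its highest and lowest array (limma test of spread between arrays, unadjusted p = 0.00265, adjusted p = 0.831).

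Of the 10 unfolded protein response genes 9 were above the background range, where 36.8% of all genes were. Their median mean level was 7.07 log2, against 5.96 over all genes. The exception was Eif2ak3, which passed the limit on array 2 alone. With the 99th percentile of the receptor genes as the limit, 3 of the 10 were above it, Ern1, Atf6 and Ddit3, beside 17.4% of all genes.

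**Figure D1:**
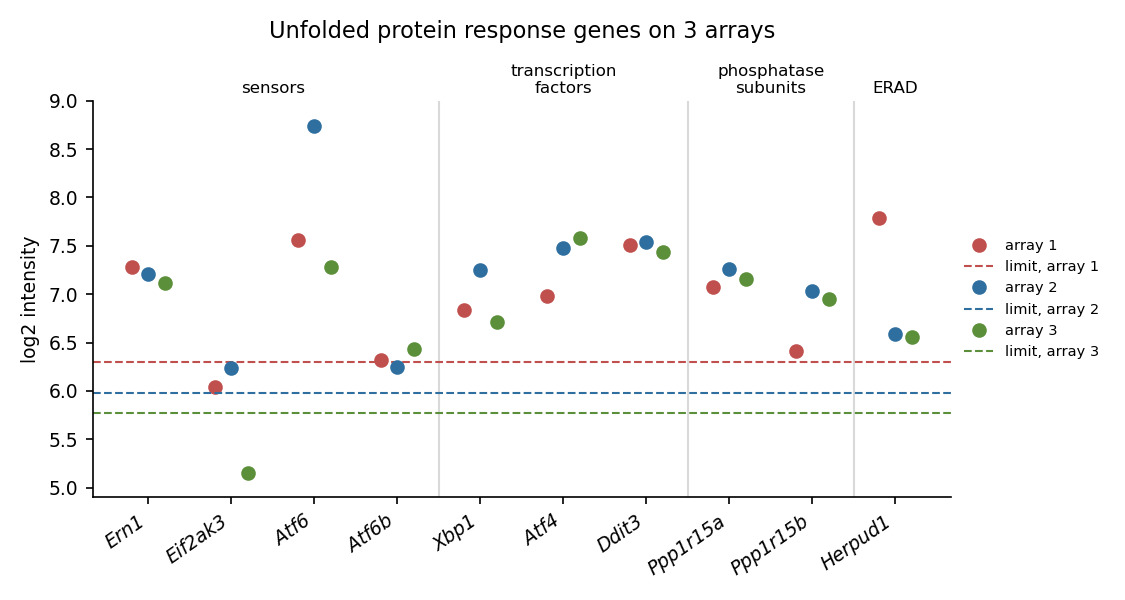
Log2 intensity (vertical axis) of the 10 unfolded protein response genes on each of the 3 arrays (coloured points), grouped by role, with the background limit of each array as a dashed line of the same colour (ERAD, ER-associated degradation). Eif2ak3 lies below the limits of arrays 1 and 3, and the other 9 genes lie above the limit on every array.

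Of the 4 sensor genes, Ern1 and Atf6b had SDs under 0.1 log2 and Atf6 and Eif2ak3 had SDs over 0.5, and no sensor passed the test of spread given further on (limma, adjusted p from 0.955 to 0.998). Ern1, which encodes the kinase and RNase IRE1, was at 7.28, 7.21 and 7.12 log2 on arrays 1, 2 and 3, a mean of 7.20 ± 0.08 (SD, n = 3). Its highest and lowest arrays differed by 1.12-fold, and every array was at least 0.98 log2 over its limit. Atf6b, which encodes the second ATF6 protein of mammals, was at 6.32, 6.25 and 6.43, a mean of 6.33 ± 0.09. Its signal was above the limit by only 0.03 log2 on array 1, so its place above the range rests on a narrow margin there.

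Atf6 itself was at 7.56, 8.74 and 7.28 log2 on arrays 1, 2 and 3, a mean of 7.86 ± 0.78 (SD, n = 3). Array 2 was high and the other arrays lay close together, so that array 2 was 2.50-fold above their mean. Eif2ak3, which encodes the eIF2 kinase PERK, was at 6.04, 6.24 and 5.15, a mean of 5.81 ± 0.58. Here array 3 was low, 0.99 log2 under the mean of arrays 1 and 2, and arrays 1 and 3 were below their limits. Atf6 and Eif2ak3 shared their highest array, array 2, and their lowest, array 3. Those were also the commonest over all 19938 genes, with 7691 highest on array 2 and 7394 lowest on array 3.

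The 3 transcription factor genes were above the range on every array and none differed by more than 1.51-fold between arrays. In the values as deposited, Ddit3, which encodes the death-promoting factor CHOP, had the smallest SD of the 10 genes. It was at 7.51, 7.54 and 7.43 log2 on arrays 1, 2 and 3, a mean of 7.49 ± 0.06 (SD, n = 3). With quantile normalization its SD was 0.11, and Atf6b had the smallest at 0.09. CHOP is known as a late, stress-induced product of the PERK branch, and its mRNA signal here was at least 1.22 log2 over the limit on each array. Xbp1, the substrate of IRE1, was at 6.84, 7.25 and 6.71, a mean of 6.93 ± 0.29. Its arrays differed by 1.46-fold, with array 2 high as for Atf6, and spliced and unspliced forms were not told apart. Of the markers of plasma cells, which are known for high Xbp1, 0 of 6 were above the range, beside 36.8% of all genes. Sdc1 was at 5.91 ± 0.13 and Jchain at 4.05 ± 0.56. Atf4, the factor that is translated when eIF2 is phosphorylated, was at 6.98, 7.48 and 7.58, a mean of 7.35 ± 0.32. Array 1 was low for it, by 1.51-fold against array 3.

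Both genes for the subunits that direct protein phosphatase 1 to eIF2, and so restore translation, were above the range. Ppp1r15a, the stress-inducible GADD34, was at 7.07, 7.26 and 7.16 log2 on arrays 1, 2 and 3, a mean of 7.16 ± 0.09 (SD, n = 3). Its arrays differed by 1.14-fold. Ppp1r15b, the constitutive CReP, was at 6.41, 7.03 and 6.96, a mean of 6.80 ± 0.34 over 2 probe sets, and array 1 was low. The probe sets disagreed. The one annotated with the RefSeq transcript was at 6.65, 7.73 and 7.63, and the one annotated with a single other cDNA was at 6.17, 6.34 and 6.28, under the limit on array 1. The low value of array 1 thus came mainly from the first probe set, whose SD was 0.60 against 0.08 for the second.

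Herpud1 encodes an ER membrane protein that takes part in ER-associated degradation (ERAD), the export of misfolded protein to the proteasome, and it is a known target of the ATF6 branch. On arrays 1, 2 and 3 it was at 7.79, 6.59 and 6.55 log2, a mean of 6.98 ± 0.70 (SD, n = 3). Array 1 was 2.33-fold above the mean of the other arrays, which lay within 0.03 log2 of each other. No other gene of the 10 with an SD over 0.5 log2 was highest on array 1.

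The promoter of Herpud1 is shown because it holds a short ER stress element, which none of the other 7 genes with a promoter window had. RefSeq windows (GRCm38.p6, 250 bases before to 50 after a gene's start) were at hand for 8 of the 10 genes. The element, called ERSE-II, was searched as ATTGG and CCACG with 1 base between them, on both strands. It occurred in 0.0444% of the 27025 genes with a window. In Herpud1 it begins 52 bases before the start. The 250 bases before the start, chr8:94386179-94386428 on the plus strand, read as follows, with the letters of the element in capitals.
Herpud1: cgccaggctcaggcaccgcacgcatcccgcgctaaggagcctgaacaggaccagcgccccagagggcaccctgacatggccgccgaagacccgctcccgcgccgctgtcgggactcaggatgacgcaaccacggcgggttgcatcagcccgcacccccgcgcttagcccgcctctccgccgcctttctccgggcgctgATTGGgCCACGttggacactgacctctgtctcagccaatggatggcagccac

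The longer element ERSE is CCAAT and CCACG with 9 bases between them, on either strand. It was in 0 of the 8 unfolded protein response genes with a window and in 0.137% of all genes with one. It may share its CCACG with ERSE-II. It was present in 8 of the 16 ER chaperone and oxidoreductase genes that had a window. The elements of the first 4 genes of that list are given to show the letters that ATF6 and its partner NF-Y are known to bind, each on the strand that reads CCAAT first, with the fixed letters in capitals. Hspa5 has its element at chr2:34772025-34772043, Hsp90b1 at chr10:86705533-86705551 and chr10:86705638-86705656, Calr at chr8:84847075-84847093 and Canx at chr11:50325800-50325818 (GRCm38.p6; plus strand for Hspa5, Calr and the first of Hsp90b1, minus strand for the others).
Hspa5: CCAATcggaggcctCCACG
Hsp90b1, first: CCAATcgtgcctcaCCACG
Hsp90b1, second: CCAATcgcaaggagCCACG
Calr: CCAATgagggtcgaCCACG
Canx: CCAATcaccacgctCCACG

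The cyclic AMP response element TGACGTCA, also searched on both strands, was found in Ppp1r15a alone among the 8 genes, 12 bases before its start. Of all genes with a window 2.03% had that element. The letters TGACGTGG, an element that XBP1 is known to bind, were in 0 of the 8 genes and in 0.714% of all genes with a window. A match describes letters and shows no binding, and a missing match concerns these windows only.

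The spread between arrays was tested for each gene against the spread of genes at its level (one-sided F test of limma, with p-values adjusted by Benjamini-Hochberg over all 19938 genes). Of the 10 unfolded protein response genes 0 passed an adjusted p of 0.05, and so did 0% of all genes, among which the smallest adjusted p was 0.744. At an unadjusted p under 0.05 the test picked 1 of the 10, Eif2ak3 (unadjusted p = 0.0405, adjusted p = 0.955, limma), and 5.1% of all genes. The adjusted p was 0.973 for Atf6 and for Herpud1. With 3 arrays the test has little power, and missing it does not show that Atf6, Eif2ak3 or Herpud1 varied as other genes do.

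The 10 genes fell on both sides of that spread. Ddit3, Ern1, Atf6b and Ppp1r15a had SDs between 0.06 and 0.09 log2, where the trend at their levels lay between 0.24 and 0.34. Xbp1, Atf4 and Ppp1r15b, at 0.29, 0.32 and 0.34, were close to the trend, and Eif2ak3, Herpud1 and Atf6, at 0.58, 0.70 and 0.78, were over it. Unlike Herpud1 and Atf6, Eif2ak3 was below the background limit on arrays 1 and 3. The median SD was 0.30 over the 10 genes, 0.22 over all genes and 0.26 over the genes above the range. The median deviation of genes within 0.5 log2 of each of the 10 lay between -0.11 and 0.13 log2 on any array. Such shared shifts of arrays were small beside the SDs of Eif2ak3, Herpud1 and Atf6, but not beside the smallest SDs. At the level of Ddit3 the shift was 0.10 log2 on array 3, against an SD of 0.06 for that gene.

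**Figure D2:**
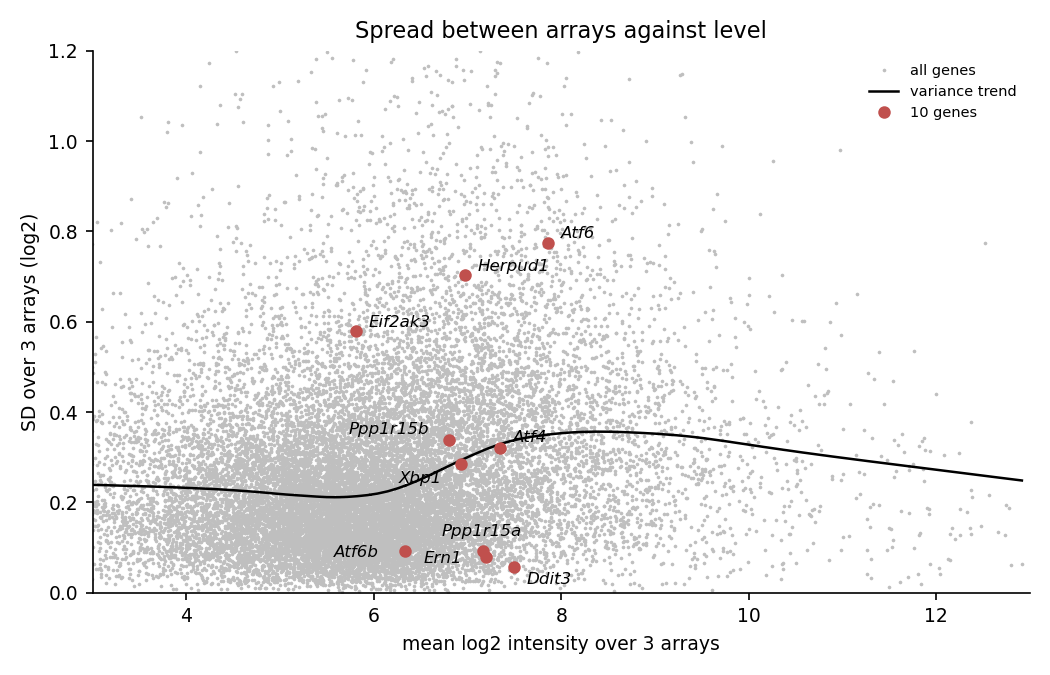
SD over the 3 arrays (log2, vertical axis) against mean log2 intensity (horizontal axis) for all genes (grey), the 10 unfolded protein response genes (red) and the fitted trend (line); 380 genes lie outside the drawn area. Atf6, Herpud1 and Eif2ak3 lie above the trend at SDs of 0.78, 0.70 and 0.58, and Ddit3, Ern1, Atf6b and Ppp1r15a lie below it.

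The 10 genes did not move as a block. Array 2 was the highest for 6 of them, and arrays 1 and 3 for 2 each. Array 3 was the lowest for 6, array 1 for 3 and array 2 for 1. These were the commonest outcomes over all 19938 genes too, of which 7691 were highest on array 2 and 7394 lowest on array 3. The mean deviation of the 10 genes from their own means was -0.01, 0.17 and -0.16 log2 on arrays 1, 2 and 3. The genes above the range whose deviations came nearest to that profile, by root mean square difference over the 3 arrays, were Cacfd1, R3hdm1 and Heatr3. As 466 of 7336 other genes were within 0.1 log2 of the profile on every array, 3 arrays do little to single out any gene by its pattern.

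Genes that the response acts on were mostly above the background range. Of the 18 ER chaperone and oxidoreductase genes 16 were above it, beside 36.8% of all genes. Their median mean level was 7.64 log2 against 5.96 over all genes. Hspa5, which encodes the chaperone BiP that also holds the sensors inactive, was at 10.11, 9.34 and 10.04 on arrays 1, 2 and 3, a mean of 9.83 ± 0.42 (SD, n = 3), and array 2 was low. Hsp90b1, the ER member of the HSP90 chaperones, was at 11.01 ± 0.12, and the lectin chaperone genes Calr and Canx were at 9.55 ± 0.03 and 10.75 ± 0.18. The 2 genes not above the range on all arrays were the disulfide isomerase gene Pdia4 at 5.88 ± 0.18 and the oxidase gene Ero1b at 5.88 ± 0.55. The value of Pdia4 is a mean over 2 probe sets, and with its brighter probe set alone Pdia4 was above the range. None of these 18 genes passed the limma test of spread, the smallest adjusted p being 0.973.

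Of the 16 measured genes of ER-associated degradation, the process that Herpud1 serves, 13 were above the range, beside 36.8% of all genes. Sel1l and Syvn1, which encode the adaptor and the ubiquitin ligase HRD1 of the same membrane complex, were at 7.29 ± 0.07 and 6.78 ± 0.30 log2 (SD, n = 3). Edem2, for a mannosidase-family protein that marks misfolded glycoproteins, was at 6.82 ± 0.42. The 3 not above it on all arrays were Edem1 at 6.59 ± 0.56, Derl3 at 6.13 ± 0.21 and the ubiquitin-conjugating enzyme gene Ube2j2 at 5.39 ± 0.16, of which Edem1 and Derl3 missed the limit on array 1 alone.

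Of the partners of the sensors and other ER stress sensors 8 of 15 were above the range, beside 36.8% of all genes. Rtcb, the RNA ligase that joins cut Xbp1 mRNA, was at 9.50 ± 0.12 log2 (SD, n = 3). Traf2, an adaptor that IRE1 recruits, was at 6.23 ± 0.25. Mbtps1, the Golgi protease that makes the first cut in ATF6, was at 6.90, 5.75 and 6.62 on arrays 1, 2 and 3 and missed the limit on array 2, the array on which Atf6 was highest. Ern2, the IRE1 gene of mucosal epithelium, was at 6.06 ± 0.09 and missed the limit on array 1.

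Of the targets of ATF4 and CHOP 16 of 23 were above the range, beside 36.8% of all genes. Asns, the asparagine synthetase gene, was at 6.45, 7.55 and 8.01 log2 on arrays 1, 2 and 3, a mean of 7.34 ± 0.80 (SD, n = 3). Like Atf4 it was lowest on array 1 and highest on array 3, and its arrays differed by 2.95-fold, where those of Atf4 differed by 1.51-fold. The list as a whole did not share that order. Of its 23 genes 8, 9 and 6 were highest on arrays 1, 2 and 3, and 16 were above their own mean on array 1. The spread of Asns did not pass the limma test (adjusted p = 0.973). Chac1, a glutathione-degrading enzyme, and Trib3, a pseudokinase, were at 6.17 ± 0.16 and 6.41 ± 0.11, and Sesn2, a stress-induced inhibitor of mTORC1, was at 5.61 ± 0.11 and passed the limit on no array.

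Of the genes for other eIF2 kinases, eIF2, eIF2B and their partners 9 of 15 were above the range, beside 36.8% of all genes. Eif2ak1, the haem-regulated kinase HRI, was at 6.76 ± 0.16 log2 (SD, n = 3). Eif2ak4, the amino acid sensor GCN2, was at 6.24 ± 0.13 and missed the limit on array 1. Eif2ak2, the double-stranded RNA sensor PKR, was at 6.89, 8.37 and 8.37 on arrays 1, 2 and 3, a mean of 7.87 ± 0.85, and array 1 was low. Its spread did not pass the limma test (adjusted p = 0.973). Eif2s2, the beta subunit of eIF2, was at 8.15 ± 0.64. The 5 subunit genes of eIF2B, the exchange factor that phosphorylated eIF2 blocks, were looked at after their values were seen: 0 of 5 were above the limit on array 1, 3 on array 2 and 5 on array 3. Over all 19938 genes 7838, 9793 and 11011 were above the limits of arrays 1, 2 and 3. The limit was lowest on array 3, and the signal of all 5 subunit genes was also highest there. The same held for 13 of the 15 genes of the list and for 5941 of all 19938 genes.

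Of the genes for cell death under ER stress 4 of 9 (44.4%) were above the range, a share near the 36.8% of all genes. They were Bbc3 at 6.45 ± 0.04, Bak1 at 7.32 ± 0.64, Map3k5 at 6.89 ± 0.26 and Mapk8 at 6.97 ± 0.79 log2 (SD, n = 3). Bbc3 encodes PUMA and Bak1 a pore-forming protein of mitochondria, while Map3k5 and Mapk8 encode the kinases ASK1 and JNK1 that act downstream of IRE1. Bcl2l11, which encodes the CHOP target BIM, was at 5.30 ± 0.38, and the death receptor gene Tnfrsf10b was at 5.61 ± 0.19, and neither passed the limit on any array. Pmaip1 at 6.03 ± 0.54, Casp12 at 6.50 ± 0.63 and Bid at 5.76 ± 0.26 also missed it on at least 1 array. Over these 6 lists, 66 of 96 measured genes were above the range.

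**Figure D3:**
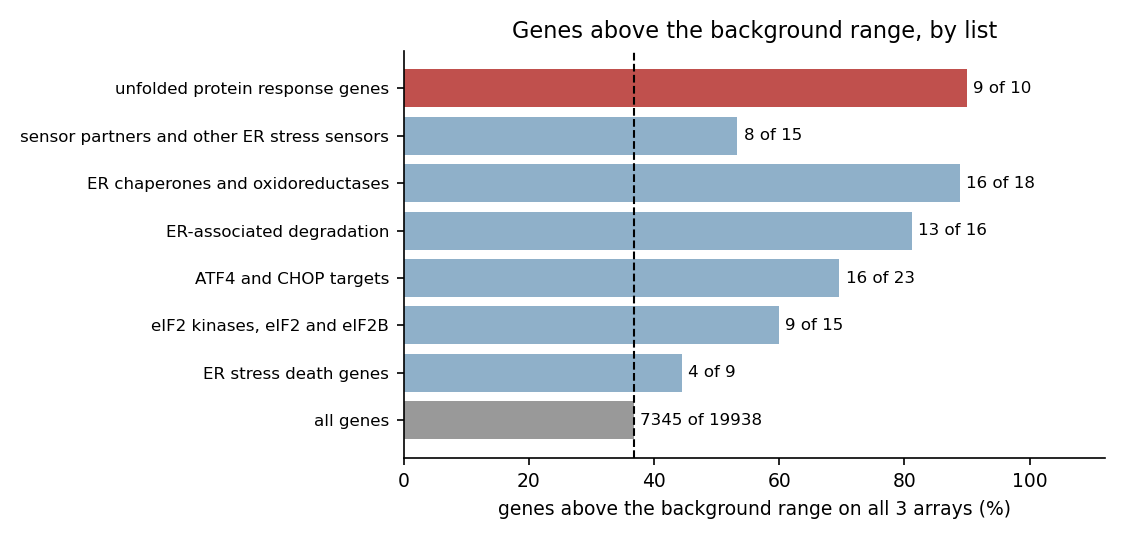
Percent of measured genes above the background range on all 3 arrays (horizontal axis) for the 10 unfolded protein response genes, 6 lists of genes of the same pathway and all genes, with counts at the bars and the share of all genes (36.8%) as a dashed line. The 10 response genes (9 of 10) and the ER chaperones (16 of 18) have the longest bars of those drawn.

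Immediate early genes, which cells switch on within minutes of handling or signalling, had their highest value on array 1 for 9 of 14 genes, as Herpud1 did, where 6306 of all 19938 genes had theirs. Fos was at 6.94, 5.57 and 5.74 log2 on arrays 1, 2 and 3, a difference of 2.58-fold between its highest and lowest array. In the same order Egr1 was at 8.09, 6.96 and 6.92 and Btg2 at 7.92, 6.77 and 6.58, both named after their values were seen. Fos, Egr1 and Btg2 were among only 4 of the 14 genes more than 0.5 log2 over their own mean on array 1. The median deviation of the list there was 0.22 log2. Array 2 was the highest for 2 of the 14 genes and array 3 for 3, Junb and Ier3 among the latter. Fosb was at 6.18 ± 0.48, Jun at 7.71 ± 0.24 and Junb at 6.45 ± 0.12 (SD, n = 3). Of these 14 genes 11 were above the range, all but Fos, Fosb and Nr4a1, beside 36.8% of all genes. The list mean was 7.52, 6.98 and 7.13 on arrays 1, 2 and 3. Granulocyte markers had their lowest list mean on array 1, and Ppp1r15b, Atf4 and Ppp1r15a were lowest there too. Whether these differences between arrays had a part in the values of Herpud1, Atf4 or Ppp1r15b was not tested. Of the other 9 response genes Ern1 alone also had its highest value on array 1, 0.07 log2 over its mean.

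**Figure D4:**
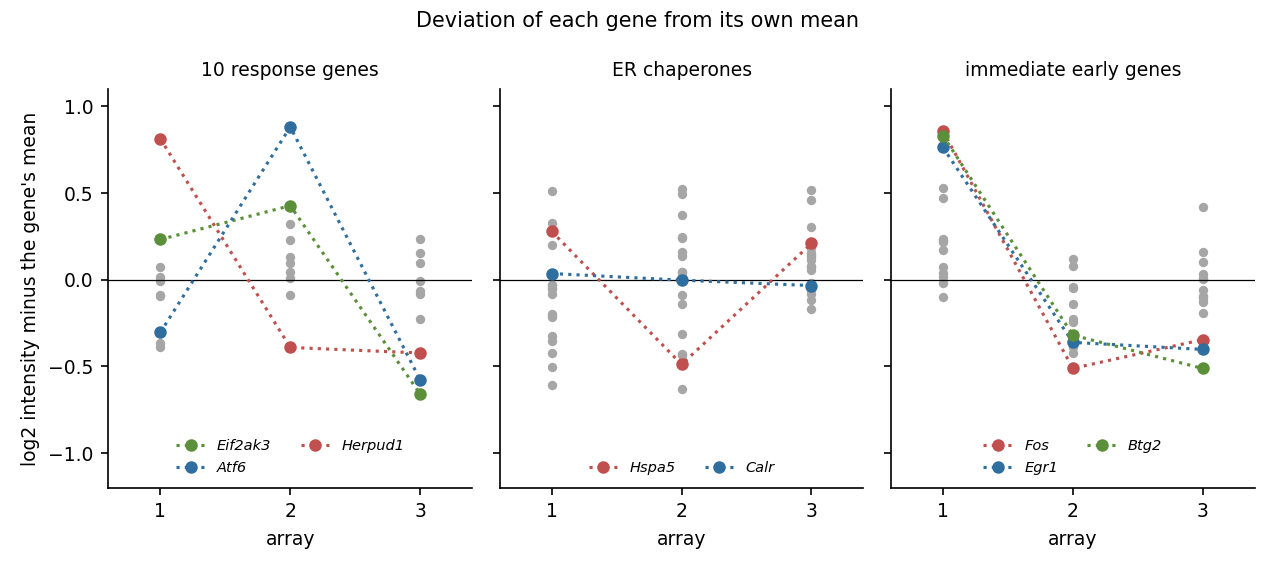
Log2 intensity minus the gene's own mean (vertical axis) on each array for the 10 unfolded protein response genes, 18 ER chaperone and oxidoreductase genes and 14 immediate early genes; dotted lines join the points of a named gene and imply no order of arrays. Herpud1, Fos, Egr1 and Btg2 are high on array 1, Atf6 is high on array 2, and Eif2ak3 is low on array 3.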

How the data were processed

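The RNA of 3 wild-type KLS SLAM samples was amplified before labelling with biotin, per the labels' protocols. The submitters' processing notes name RMA and Affymetrix Expression Console. The authors deposited intensities on a linear scale (2.82 to 18384), read as linear from their range; a tool version or genome build is not given in the sources used here. RMA forces arrays that are run together onto one distribution, which hides array-wide differences. Here log2 was taken with no pseudocount.

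Of 35554 probe sets, 21789 named 1 gene in the platform annotation, 1621 several and 12144 were not listed. The log2 values of single-gene probe sets were averaged per gene, 999 genes having several. Gene IDs of 21698 probe sets matched a GRCm38 gene table. List genes without a probe set of their own were not analysed here. The variance of each gene (2 residual degrees of freedom) was set against limma's robust mean-variance trend (limma 3.58.1, statmod 1.5.0, R 4.3.3), which was also tested on simulated data. With 3 arrays precision is low. Promoter windows are those of RefSeq.

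The 10 genes and all lists were chosen with earlier results of these data known. Named were all 10 genes, the first 4 measured genes of each list, up to 5 list members where that few fell on a side of the limit, and the first genes of the marker lists that bear on a result. Alternatives concerned the limit, normalization, probe sets, variance trend, a filter on dim genes, a pseudocount and leaving out arrays.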

Additional observations from a re-analysis of the deposited data

How the results depend on the processing

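The number of unfolded protein response genes above the background range stayed at 9 of 10 with quantile normalization, the brightest probe set and a limit from receptor probe sets. It was also 9 with median centring, with the 90th percentile as limit and without any one array, but these settings could not lower it. Median centring moves each array and its limit together, and the others only loosen the rule. Nor could leaving out an array add Eif2ak3, which was above the limit on array 2 alone. The share of all genes was 36.8% and moved to 50.6% with the 90th percentile. It was 46.9%, 38.7% and 37% without arrays 1, 2 and 3. With the 99th percentile the number was 3 of 10, beside 17.4% of all genes. Atf6b, Xbp1, Atf4, Ppp1r15a, Ppp1r15b and Herpud1 missed the stricter limit on at least 1 array. Of the 96 genes of the 6 pathway lists 66 were above the range, 37 with the 99th percentile, 81 with the 90th, and 67 to 75 when an array was left out, with the same shares of all genes beside them. With the brightest probe set the number was 67, Pdia4 being added, beside 37.2% of all genes. No gene passed the limma test of spread under any of the 9 alternatives run, and the adjusted p of single response genes ran from 0.729 to 0.999. On simulated data the test called 32% of genes with 10 times the SD of the trend and 75% of those with 40 times. Missing it under every setting therefore says little about how stable the spread of a gene is. The mean level of Ppp1r15b, the only one of the 10 with several probe sets, was 7.34 log2 with its brighter probe set in place of 6.80. The SD of Herpud1 was 0.02 log2 without array 1, that of Atf6 0.19 without array 2 and that of Eif2ak3 0.14 without array 3, so each rests on that array. With quantile normalization the SDs of Ddit3, Ern1 and Ppp1r15a were each 0.11 log2 and that of Atf6b was 0.09, so only Atf6b stayed under 0.1. No paired analysis was possible because the samples form a single group. Scanner files and scan dates were not used here, so background correction and slide were not varied.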
